A study of Mus musculus with 12 samples.

Results

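The genes described here are 10 genes of the circadian clock, the cell-autonomous timer of daily rhythms. They were taken by symbol from the 55367 gene symbols of each sample, and comprise Clock, Per1, Per2, Per3, Cry1, Cry2, Nr1d1, Nr1d2, Dbp and Tef. All 10 symbols were found and all 10 passed the filter on low values that was applied before testing. RNA was sequenced from 12 samples of single fibers of the extensor digitorum longus (EDL), a fast muscle of the lower hindlimb, of C57BL/6J mice. The fibers were freed with collagenase and stained with Fluo-4, a dye that fluoresces when it binds calcium. The Young group held 4 samples from mice of 3 to 4 months. The mice of both aged groups were 26 to 28 months old, and their fibers were sorted by eye under a fluorescence stereomicroscope into 4 Fluo-4 normal samples and 4 Fluo-4 abnormal samples. Fluo-4 abnormal fibers are those with aberrantly strong staining, which the study describes in aged male mice and which hold structures resembling tubular aggregates, stacked tubules of the sarcoplasmic reticulum. The labels name no drug, transgene or mutant allele for any group. The number of fibers and mice behind each sample is not given in the sources used here, nor is it said that the samples came from separate mice, so the p-values measure the spread between these samples, which may be technical.

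The clock runs as a transcriptional feedback loop. CLOCK pairs with BMAL1 and activates genes through E-box elements, among them the Per, Cry and Nr1d genes and Dbp. PER and CRY proteins accumulate and repress CLOCK-BMAL1, while the nuclear receptors REV-ERBalpha (Nr1d1) and REV-ERBbeta (Nr1d2) repress Bmal1 through elements shared with the ROR receptors. DBP and TEF are PAR bZIP transcription factors that carry the rhythm to output genes through D-box elements. In skeletal muscle the clock is known to time genes of fuel use, and the levels of most of these transcripts depend on the hour of the day. The mice were kept on a cycle of 12 h light and 12 h dark, and the study's methods place these experiments in the daytime without giving the hour of fiber isolation. An hour that differed between the young and the aged mice and the effect of age therefore cannot be told apart here.

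Start-site sequences are shown for the 3 genes that differed between groups by the main test, Cry2, Tef and Per1, and for Nr1d1, whose same-numbered aged samples were most alike. Each runs 5′ to 3′ from 250 bases before to 50 bases after the annotated start, and was read from the GRCm39 genome at the start of the canonical transcript in GENCODE vM39. Capitals mark an E-box (CACGTG) in Per1 and Tef, and in Cry2 and Nr1d1 the E-prime box CACGTT, which reads AACGTG on the other strand. The first is chr11:68989018-68989317 (plus strand), the second chr2:92264425-92264724 (minus strand), the next chr11:98666110-98666409 (minus strand) and the last chr15:81695365-81695664 (plus strand).
Per1: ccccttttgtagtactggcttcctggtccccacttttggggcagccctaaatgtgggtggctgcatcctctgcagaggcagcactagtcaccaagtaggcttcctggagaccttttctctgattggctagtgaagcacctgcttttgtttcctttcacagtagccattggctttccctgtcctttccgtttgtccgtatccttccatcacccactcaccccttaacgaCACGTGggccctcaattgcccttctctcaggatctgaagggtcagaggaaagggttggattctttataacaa
Cry2: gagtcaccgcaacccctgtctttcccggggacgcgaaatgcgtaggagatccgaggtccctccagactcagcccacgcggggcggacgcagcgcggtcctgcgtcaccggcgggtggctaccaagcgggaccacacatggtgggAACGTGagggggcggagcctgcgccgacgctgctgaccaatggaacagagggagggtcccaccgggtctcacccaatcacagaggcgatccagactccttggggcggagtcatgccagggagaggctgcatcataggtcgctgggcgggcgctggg
Nr1d1: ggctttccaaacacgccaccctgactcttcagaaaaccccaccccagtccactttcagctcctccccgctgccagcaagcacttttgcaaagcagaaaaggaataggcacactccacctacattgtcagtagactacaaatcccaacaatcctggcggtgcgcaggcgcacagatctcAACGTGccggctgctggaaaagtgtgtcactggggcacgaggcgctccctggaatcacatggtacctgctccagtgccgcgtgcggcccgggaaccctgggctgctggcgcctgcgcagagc
Tef: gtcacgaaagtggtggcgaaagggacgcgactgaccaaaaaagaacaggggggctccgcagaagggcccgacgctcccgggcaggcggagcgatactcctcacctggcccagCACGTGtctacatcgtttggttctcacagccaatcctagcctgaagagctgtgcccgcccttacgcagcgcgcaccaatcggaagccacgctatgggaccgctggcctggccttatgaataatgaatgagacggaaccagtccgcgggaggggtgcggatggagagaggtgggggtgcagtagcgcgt
The capitals begin at -22 from the start site in Per1, -106 in Cry2, -72 in Nr1d1 and -138 in Tef. Of the 10 genes, 3 had an E-box in this window (Per1, Cry1 and Tef), against 7.82% of 21757 promoters of the same length. An E-prime box was found in 4 (Per2, Cry1, Cry2 and Nr1d1), against 5.0% of promoters. The D-box TTATGTAA was found in 2, at -125 in Per2 and at -187 and -140 in Per3, against 0.933% of promoters. Its C form TTACGTAA was in none of the 10 and in 0.138% of promoters, and the REV-ERB and ROR element TAGGTCA was in Dbp alone, at -189, against 2.49% of promoters. Both strands were searched, the letters of these motifs do not contain one another, and a match describes the letters only.

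Each value is a TPM, a transcript abundance that the authors computed from the reads and that corrects for transcript length and for the total of the sample. Read counts were not used here, so depth is unknown and the values carry no counting interval. In every sample between 16841 and 17936 genes were above 0 TPM. Muscle fiber markers dominated every sample, with 10 genes such as Acta1, Ckm and Myh4 summing to 171860 to 174940 TPM in Young, 146790 to 170710 in Fluo-4 normal and 177660 to 200220 in Fluo-4 abnormal samples. Markers of other cells were low beside these sums. The 4 adipocyte markers (Adipoq, Plin1, Cidec and Lep) were listed at 0 throughout, the 4 satellite cell markers summed to 0.835 to 2.45 TPM, the 4 Schwann cell markers to 0.511 to 2.55 TPM and the 6 endothelial markers to 2.96 to 26.3 TPM. The 6 fibroblast markers summed to 13.6 to 82.4 TPM, the 5 erythroid markers to 33.1 to 482 TPM, and the 4 smooth muscle markers to 0.780 to 62.0 TPM. Some of these values moved with the comparison of Fluo-4 abnormal and Fluo-4 normal samples. In the abnormal samples the 6 immune markers summed to 2.84 to 5.83 TPM against 1.02 to 2.37 TPM, with 4 of the 6 under 1 TPM in every sample. This gap came from Cd3e, a T cell gene, at 2.10 to 4.86 TPM against 0.608 to 0.854 TPM. Without Cd3e the sums overlapped (0.457 to 2.95 TPM against 0.161 to 1.602 TPM). Of the 5 immune markers tested, Cd3e included, 3 had a log2 change above 0, while Csf1r (-0.16) and C1qa (-0.24) lay below it and did not pass. Of the 6 endothelial and the 5 erythroid markers, 0 had a log2 change above 0, with medians of -0.38 and -0.64. Of all genes tested, 69.6% were above 0. Abnormal samples held 4.75% to 6.92% of the TPM in mitochondrially-encoded genes, against 8.75% to 10.9% in normal samples. Their share of Myh4, the myosin of the fastest fibers, among the adult myosin heavy chains was 98.9% to 99.7% against 93.7% to 99.2%, which overlapped through normal sample 1. Of all these markers Myh4 and Cd3e passed in limma between abnormal and normal samples, both higher, and Cd3e and the Schwann cell gene Sox10 were higher in abnormal than in Young samples. Replicate 1 of the Fluo-4 normal group had the lowest TMM-type scaling factor of the 12 samples, 0.809, where the other samples lay between 0.913 and 1.17. In samples of whole fibers, fewer cells of a type and less RNA per cell cannot be told apart.

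The 10 genes spanned a wide range of levels. In Young samples the PAR bZIP genes were the highest, with Tef at 92.7 ± 6.53 TPM (SD, n = 4) and Dbp at 80.7 ± 6.85 TPM (SD, n = 4), and their ranges overlapped. Nr1d1 followed at 59.4 ± 7.91 TPM (SD, n = 4) and Nr1d2 at 38.4 ± 3.66 TPM (SD, n = 4), and neither overlapped its neighbors in the order. Cry2 stood at 18.8 ± 2.40 TPM (SD, n = 4), above Cry1 at 6.38 ± 1.35 TPM (SD, n = 4) and Per1 at 6.01 ± 0.845 TPM (SD, n = 4), which overlapped each other. The lowest were Per3 at 2.26 ± 0.269 TPM, Clock at 2.07 ± 0.303 TPM and Per2 at 2.02 ± 0.571 TPM (SD, n = 4 each), and these 3 overlapped. In the aged groups Tef remained above Dbp in mean and the genes with a mean under 4 TPM were again Per3, Clock and Per2. Cry2, however, was at 40.4 ± 6.72 TPM (SD, n = 4) in the Fluo-4 abnormal samples, where its range overlapped that of Nr1d2. The spread between samples was unequal among genes. The coefficient of variation in Young samples ran from 7.04% for Tef to 28.2% for Per2, in Fluo-4 normal samples from 9.63% for Dbp to 45.2% for Per3, and in Fluo-4 abnormal samples from 8.72% for Nr1d2 to 33.1% for Nr1d1.

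**Figure D1:**
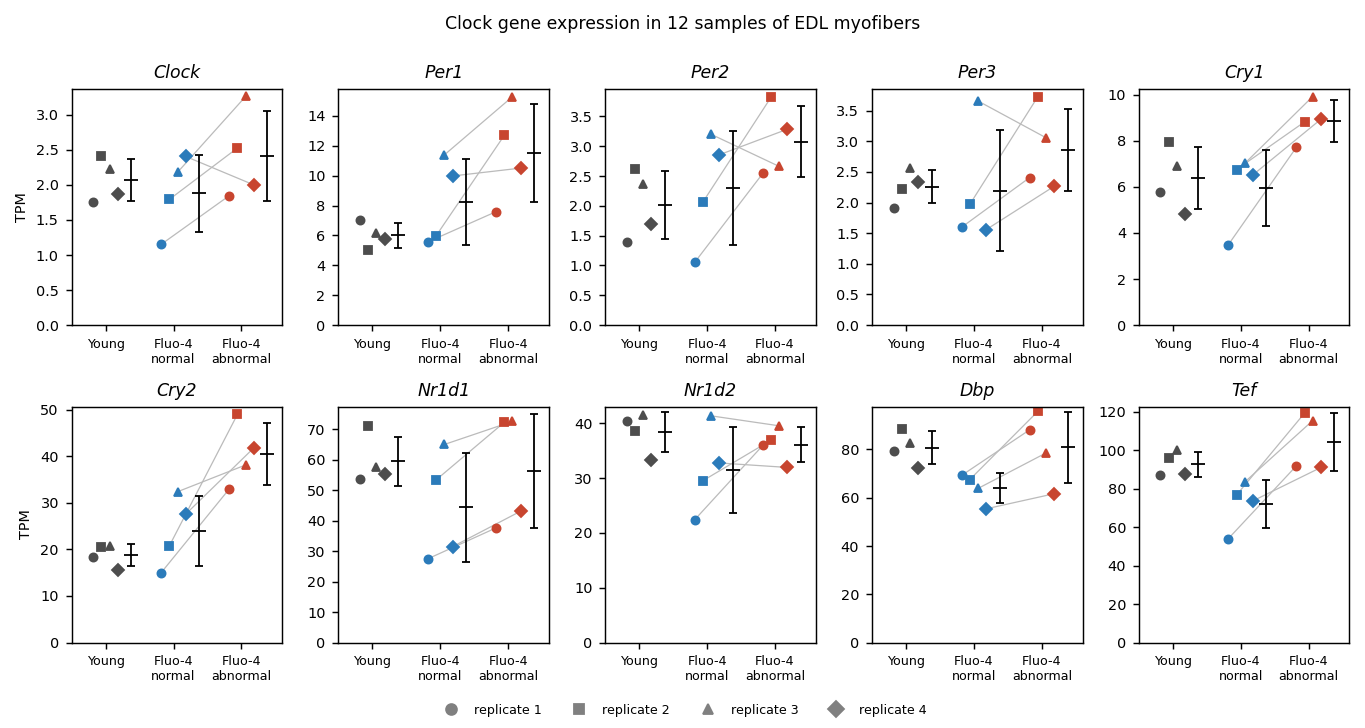
TPM of the 10 clock genes in each of the 12 samples, 1 panel per gene with its own axis from 0, with the mean and SD of each group (n = 4) beside its points and grey lines joining samples of the same number in the aged groups. Cry2 lies at 33.0 to 48.9 TPM in the Fluo-4 abnormal samples, above all the other samples, whereas the Fluo-4 normal samples of Dbp (55.4 to 69.3 TPM) and Tef (54.0 to 83.4 TPM) lie below the Young samples.

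The first comparison asked how the clock genes differed between the abnormal and the normal fibers of aged mice. Cry2 and Tef were higher in the Fluo-4 abnormal samples by the limma test on log2(TPM + 1), and the other 8 genes did not pass an adjusted p of 0.05. Of all 14429 genes tested, 7.36% were called higher and 9.35% were called in either direction. The 10 fitted changes were all above 0, with a median of 0.36, although that of Nr1d2 was -0.0036 after rescaling with TMM-type factors. Across all genes tested 69.6% of the changes were above 0, and the median was 0.10, which became 0.0 with these factors. For called genes among the 10 the change less that median is given too, and on that scale all 10 were above 0.

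Cry2, which encodes a repressor that binds PER proteins and inhibits CLOCK-BMAL1, lies at chr2:92233894-92264474 on the minus strand, and its start is the second sequence printed above. Its level was 15.0, 20.8, 32.4 and 27.6 TPM in Fluo-4 normal samples 1 to 4 and 33.0, 48.9, 38.1 and 41.7 TPM in Fluo-4 abnormal samples 1 to 4. The groups did not overlap, but the highest normal sample (number 3) came close to the lowest abnormal sample (number 1). The mean rose from 23.9 ± 7.61 to 40.4 ± 6.72 TPM (SD, n = 4 each), a ratio of 1.69. The log2 change was 0.77 with a standard error of 0.20 and a 95% interval of 0.35 to 1.19 (limma, adjusted p = 0.0256), or 0.67 above the median gene. It was 0.55 with TMM-type factors (adjusted p = 0.0489) and 1.01 with the Myh4 share as a covariate (adjusted p = 0.0494). A fit with the replicate number as a block gave an adjusted p of 0.00704, but the block together with the Myh4 share gave 0.240, and a fit of the aged groups alone 0.0581.

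Cry1, its paralog in the repressor complex, lies at chr10:84967560-85021252 on the minus strand. Its level was 3.49, 6.75, 7.01 and 6.52 TPM in the Fluo-4 normal and 7.72, 8.82, 9.92 and 8.93 TPM in the Fluo-4 abnormal samples. These groups did not overlap either, and replicate 1 of the normal group lay far below the other 3. The log2 change was 0.54 with a standard error of 0.19, and did not pass over all genes tested (limma, adjusted p = 0.0987). The adjusted p was 0.0459 with the replicate block, 0.0473 among genes with at least 5 TPM, and 0.152 with the block and TMM-type factors.

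The 3 Per genes encode the partners of the CRY proteins in the repressor complex, and none of them passed. Per1 (chr11:68986035-69002300, plus strand), which also responds acutely to stimuli, was at 5.58, 5.99, 11.4 and 9.98 TPM in the normal and 7.59, 12.7, 15.3 and 10.5 TPM in the abnormal samples. Its log2 change of 0.45 had a 95% interval of -0.041 to 0.95 (limma, adjusted p = 0.236). The normal samples of Per1 formed a low pair, numbers 1 and 2, and a high pair, numbers 3 and 4, so the groups overlapped widely. Per2 (chr1:91343700-91387069, minus strand) ranged from 1.06 to 3.20 TPM in the normal and from 2.54 to 3.82 TPM in the abnormal samples, with a log2 change of 0.35 (limma, adjusted p = 0.367). Per3 (chr4:151081373-151129140, minus strand) ranged from 1.56 to 3.66 TPM and from 2.27 to 3.73 TPM, with a log2 change of 0.30 (limma, adjusted p = 0.380). At these low TPM values the pseudocount of 1 understates a ratio. Clock, the activator (chr5:76342860-76452846, minus strand), was at 1.15, 1.79, 2.18 and 2.41 TPM in the normal and 1.85, 2.53, 3.26 and 2.00 TPM in the abnormal samples. Its log2 change of 0.24 had an interval of -0.15 to 0.64 (limma, adjusted p = 0.437).

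The REV-ERB genes encode the repressors of the second loop, and neither passed. Nr1d1 (chr11:98658752-98666188, minus strand) was at 27.5, 53.4, 65.0 and 31.4 TPM in the Fluo-4 normal samples and 37.6, 72.2, 72.5 and 43.1 TPM in the Fluo-4 abnormal samples. Numbers 2 and 3 were high and numbers 1 and 4 low in both groups, so the groups overlapped while each abnormal sample lay above the normal sample of its number. The log2 change was 0.37 with a standard error of 0.27 (limma, adjusted p = 0.422), and the standard error fell to 0.092 with the replicate block (limma, adjusted p = 0.0226). With TMM-type factors the change was 0.14 (limma, adjusted p = 0.807), and the block no longer gave a call (0.294). Nr1d1 shares 52.3% of its exon bases with Thra, a thyroid hormone receptor gene on the opposite strand, and the libraries kept no record of strand. Thra itself was lower, at 8.54, 11.7, 10.1 and 8.73 TPM in the normal and 9.46, 13.9, 12.5 and 9.02 TPM in the abnormal samples. Its numbers 2 and 3 were thus also above numbers 1 and 4 in both groups. Nr1d2 (chr14:4230545-4266624, plus strand) was at 22.4 to 41.4 TPM in the normal and 32.0 to 39.6 TPM in the abnormal samples, with a log2 change of 0.22 and an interval of -0.097 to 0.53 (limma, adjusted p = 0.380).

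Tef (chr15:81686622-81711064, plus strand), one of the PAR bZIP output factors, was at 54.0, 76.7, 83.4 and 73.6 TPM in the Fluo-4 normal samples and 91.8, 119, 115 and 91.0 TPM in the Fluo-4 abnormal samples. The groups did not overlap, and abnormal samples 1 and 4 stood below 2 and 3. The mean rose from 71.9 ± 12.6 to 104 ± 15.0 TPM (SD, n = 4 each), a ratio of 1.45. The log2 change was 0.54 with a standard error of 0.13 and a 95% interval of 0.26 to 0.81 (limma, adjusted p = 0.0201), or 0.44 above the median gene. With TMM-type factors it was 0.31 and no longer passed (adjusted p = 0.0629), whereas with the Myh4 share as a covariate it was 0.78 (adjusted p = 0.0266). The replicate block gave an adjusted p of 0.00179, the block with the Myh4 share 0.147, and a fit of the aged groups alone 0.0539. Dbp (chr7:45354512-45359627, plus strand), whose transcript is among the most strongly rhythmic in many tissues, was at 69.3, 67.5, 63.8 and 55.4 TPM in the normal and 88.1, 95.8, 78.5 and 61.7 TPM in the abnormal samples. Abnormal sample 4 fell within the normal range and the other 3 lay above it. The log2 change of 0.32 had a standard error of 0.12 and did not pass (limma, adjusted p = 0.113), but passed with the block (adjusted p = 0.0167) and without abnormal sample 4 (0.023). With TMM-type factors the change was 0.096 (limma, adjusted p = 0.752, and 0.437 with the block).

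Counted together, 3 of the 10 genes had no overlap between the abnormal and the normal samples (Cry1, Cry2 and Tef), all of them higher, where 11.5% of all genes did so in that direction. At an unadjusted p under 0.05 there were 4 of 10 (Cry1, Cry2, Dbp and Tef), all of them higher, against 21.3% of all genes in that direction. With the replicate block 5 of 10 were called higher (Cry1, Cry2, Nr1d1, Dbp and Tef), where 13.0% of all genes were called higher under that fit. This block joined the aged samples of a number and left out Young, and with TMM-type factors as well it called only Cry2 and Tef. Both calls were lost without some single samples, in fits that also had fewer samples. With 1 sample left out the change of Cry2 ran from 0.58 to 0.93 and that of Tef from 0.41 to 0.61. Without abnormal sample 3 that of Cry2 was 0.80 with a standard error of 0.22, beside 0.20 in the full fit. Without abnormal sample 2 neither Cry2 (adjusted p = 0.084) nor Tef (0.069) passed in limma, and without abnormal sample 3 the values were 0.050 and 0.057. Without normal sample 1 Cry2 did not pass (0.051) while Tef did, and the same held without normal sample 2 (0.064) and without abnormal sample 4 (0.060). The direction of calls over the whole table also moved with the scaling. Of 1349 genes called, 78.7% were higher, against 36.0% of 873 with TMM-type factors and 66.5% of 955 when the mitochondrially-encoded genes were left out of the total. With these genes left out Cry2 (0.72, adjusted p = 0.0427) and Tef (0.48, adjusted p = 0.0415) still passed in limma. The part of the immune markers or of Cd3e in these results was not tested.

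**Figure D2:**
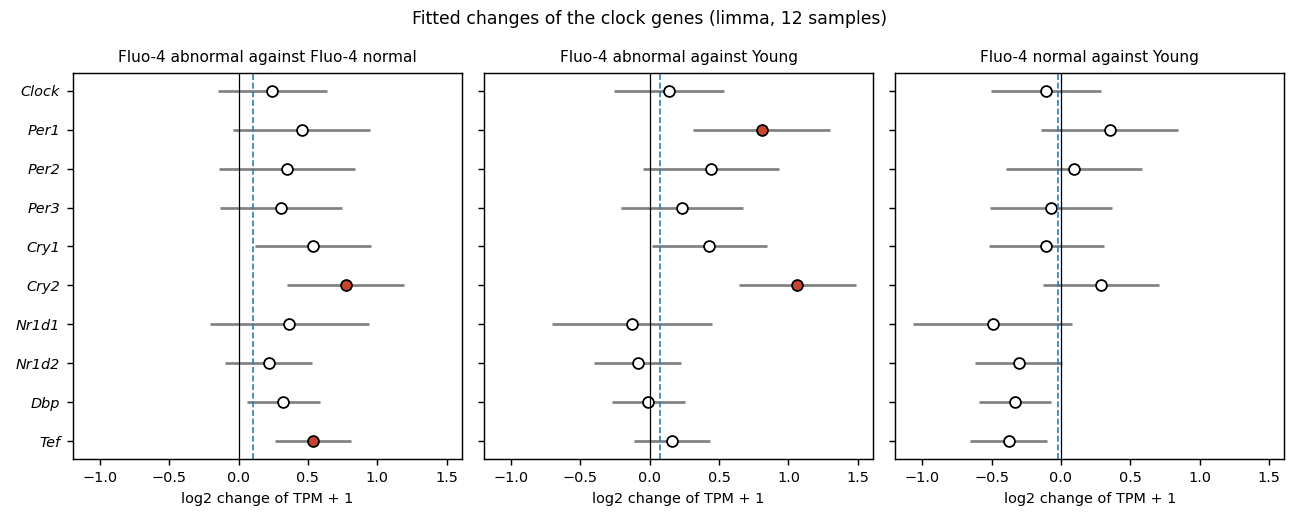
Fitted log2 change of TPM + 1 for each clock gene in the 3 comparisons, with 95% intervals from limma over 12 samples; filled points passed an adjusted p of 0.05 and the dashed line is the median of all 14429 genes tested. Cry2 and Tef are filled in the first panel (0.77 and 0.54), Per1 and Cry2 in the second (0.81 and 1.06) and none in the third.

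The second comparison set the Fluo-4 abnormal fibers of aged mice against fibers of young mice. It shares the abnormal samples with the first comparison, so the values of both stand side by side and are not independent. Cry2 and Per1 were higher in the abnormal samples, 2 of 10 genes where 6.09% of all genes were called higher and 8.5% in either direction. Cry2 was at 18.4, 20.4, 20.7 and 15.5 TPM in Young samples 1 to 4, all of them below the lowest abnormal sample at 33.0 TPM. The mean was 2.16 times that of Young, with a log2 change of 1.06, a standard error of 0.20 and an interval of 0.64 to 1.48 (limma, adjusted p = 0.00540). This call was kept under every one of 24 alternatives, including leaving out each sample, with changes between 0.90 and 1.18. It was 0.99 above the median of all genes, which was 0.074.

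Per1 was at 7.07, 5.03, 6.14 and 5.79 TPM in Young and reached 7.59 to 15.3 TPM in the abnormal samples, which left a narrow gap between Young sample 1 and abnormal sample 1. The log2 change was 0.81 with a standard error of 0.23 (limma, adjusted p = 0.0459), or 0.73 above the median gene. The call was at the edge of the threshold. It passed under 10 of 24 alternatives. Among these were the replicate block, alone and with TMM-type factors, whose p-values against Young are too small, and leaving out normal sample 1, 2 or 3. The call was lost, for example, with TMM-type factors (0.65, limma, adjusted p = 0.0830) and without any one of the Young samples, normal sample 4 or abnormal samples 2, 3 or 4. Per1 and Cry2 were also the 2 genes of 10 whose abnormal and Young samples did not overlap, both higher, where 12.2% of all genes had no overlap in that direction. Cry1 had a log2 change of 0.43 (limma, adjusted p = 0.200) and Per2 of 0.44 (adjusted p = 0.272).

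The remaining genes did not pass either. Dbp was at 79.5, 88.6, 82.6 and 72.2 TPM in Young, and its mean of 81.0 ± 14.7 TPM (SD, n = 4) in the abnormal samples gave a log2 change of -0.0095 with an interval of -0.27 to 0.25. Tef was at 87.1, 96.1, 100.3 and 87.4 TPM in Young, with a log2 change of 0.16 and an interval of -0.12 to 0.44, which became -0.0065 with TMM-type factors. Nr1d1 was at 53.6, 71.0, 57.7 and 55.4 TPM in Young and Nr1d2 at 40.4, 38.6, 41.5 and 33.3 TPM, with log2 changes of -0.13 and -0.087. The intervals of these 4 genes include 0, which does not show equal levels. Over the 10 genes 7 changes were above 0, with a median of 0.20, where 66.4% of all genes were above 0. Of the 1227 genes called in this comparison 71.6% were higher, against 40.5% of 1135 with TMM-type factors.

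The third comparison set the Fluo-4 normal fibers of aged mice against young fibers, sharing its groups with the comparisons above. None of the 10 genes passed an adjusted p of 0.05 in limma, where 1.15% of all genes did. At an unadjusted p under 0.05, 2 of the 10 differed, against 12.9% of all genes, and both were the PAR bZIP genes. All 4 normal samples of Tef (54.0 to 83.4 TPM) lay below the 4 Young samples (87.1 to 100.3 TPM), with a log2 change of -0.38 and a standard error of 0.13 (limma, adjusted p = 0.196). All 4 normal samples of Dbp (55.4 to 69.3 TPM) likewise lay below the Young samples (72.2 to 88.6 TPM), with a log2 change of -0.33 and a standard error of 0.12 (limma, adjusted p = 0.243). No overlap in the lower direction was seen in 4.96% of all genes. The abnormal samples of Tef (91.0 to 119 TPM) and Dbp (61.7 to 95.8 TPM) overlapped Young, while for Cry2 the normal samples (15.0 to 32.4 TPM) overlapped Young and the abnormal samples lay above both.

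The REV-ERB genes had changes below 0 that did not pass, -0.49 for Nr1d1 (limma, adjusted p = 0.472) and -0.30 for Nr1d2 (adjusted p = 0.405). Normal samples 1 and 4 of Nr1d1 (27.5 and 31.4 TPM) lay below every Young sample, sample 2 (53.4 TPM) lay just below the lowest of them and sample 3 (65.0 TPM) within their range. The changes of the PER-CRY genes ran from -0.11 for Cry1 to 0.35 for Per1, and that of Clock was -0.11. Over the 10 genes 3 changes were above 0 (Per1, Per2 and Cry2), with a median of -0.11, where 43.5% of all genes were above 0. In the fit with the replicate block Nr1d1, Tef and Dbp passed, all lower, where 512 of all 14429 genes passed, 298 of them lower. But that fit takes the differences between numbered aged samples out of the error, while the Young samples, which came from other mice, were left out of the block, so its p-values against Young are too small.

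The further genes of the clock were covered by a list of 20, with the partner and regulators of CLOCK, the ROR receptors, and the kinases and ubiquitin ligases that set the stability of PER and CRY proteins. Between abnormal and normal samples 17 of the 20 had a change above 0, with a median of 0.31, where 69.6% of all genes were above 0 with a median of 0.10. Some of the 20 were near 0 TPM. Among these, Npas2 (at most 0.207 TPM in the aged samples) and Rorb (at most 0.076 TPM) counted as above 0. Fbxl21 was at 0 TPM in all aged samples and did not. Of the 20, 2 passed, both higher, against 7.36% of all genes called higher. Rora, a nuclear receptor that activates Bmal1 through the element REV-ERB proteins occupy, was at 23.7, 40.2, 53.3 and 43.2 TPM in the normal and 55.0, 85.9, 91.4 and 65.9 TPM in the abnormal samples. Its log2 change was 0.91 with a standard error of 0.22 (limma, adjusted p = 0.0215). The groups did not overlap. Gsk3b, a kinase of many pathways that also phosphorylates clock proteins, was at 6.55, 14.4, 16.1 and 13.3 TPM in the normal and 17.0, 23.7, 21.5 and 19.1 TPM in the abnormal samples, with a log2 change of 0.71 (limma, adjusted p = 0.0485). For the genes of this list and of those below, only changes from the main fit are given, without TMM-type factors. Against Young only Rora passed (0.84, limma, adjusted p = 0.0321), where 6.09% of all genes were called higher and 8.5% in either direction. Its Young samples were at 39.1, 44.8, 47.1 and 32.5 TPM. Between normal and Young samples none of the 20 passed, against 1.15% of all genes. At an unadjusted p under 0.05 there were 6 of the 20 between abnormal and normal samples, where 3693 of all 14429 genes were. There were 5 against Young, beside 3323 of all genes, and 3 between normal and Young samples, beside 12.9% of all genes. Bmal1, listed under its older symbol Arntl, was at 4.31, 6.33, 8.48 and 3.86 TPM in the normal and 5.45, 8.26, 7.60 and 4.55 TPM in the abnormal samples, with a log2 change of 0.17 (limma, adjusted p = 0.668). It was highest in numbers 2 and 3 of both groups, the same numbers in which Nr1d1 was highest.

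Of 8 genes known as clock outputs in muscle, none passed in limma between abnormal and normal samples (1 at an unadjusted p under 0.05) or between normal and Young samples (1 unadjusted). Of all genes, 9.35% and 1.15% passed in these comparisons. At an unadjusted p under 0.05 there were 3693 of all 14429 genes in the former and 12.9% in the latter. Of the 8 changes, 5 were above 0 in each comparison. Of all genes, 69.6% were above 0 between abnormal and normal, 66.4% between abnormal and Young and 43.5% between normal and Young samples. Against Young, Usp2, a ubiquitin protease, was higher in the abnormal samples (log2 change 0.51, limma, adjusted p = 0.0354), where 6.09% of all genes were called higher. Glucocorticoids also drive Per1 and set peripheral clocks, so 8 glucocorticoid target genes were counted. Between abnormal and normal samples 5 were above 0, with a median of 0.12, where 69.6% of all genes were above 0 with a median of 0.10. Of all genes 7.36% were called higher against normal samples and 6.09% against Young. Tsc22d3, which encodes the leucine zipper protein GILZ, passed against normal samples (0.34, limma, adjusted p = 0.0230) and against Young (0.38, adjusted p = 0.0151). Cdkn1a, a cell cycle inhibitor also induced by p53, passed against Young (1.43, limma, adjusted p = 0.00622). Of these 8 genes none passed between normal and Young samples (1 unadjusted), against 1.15% of all genes (12.9% unadjusted). Collagenase isolation is known to induce immediate early genes, among which Per1 is often counted. Of 16 such genes none passed in limma between abnormal and normal samples (3 unadjusted, where 3693 of all 14429 genes were). There 12 were above 0 with a median of 0.34, beside 69.6% and a median of 0.10 over all genes. Against Young, 15 of the 16 were above 0 with a median of 0.59, where 66.4% of all genes were above 0 with a median of 0.074. Egr1 (0.98, limma, adjusted p = 0.0442) and Atf3 (1.00, adjusted p = 0.0353) passed, against 6.09% of all genes called higher. At an unadjusted p under 0.05 there were 10 of the 16 against Young, where 3323 of all 14429 genes were. None of the 16 passed between normal and Young samples (3 unadjusted, against 12.9% of all genes), where the median was 0.19. The part of this response in the difference of Per1 from Young was not tested.

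**Figure D3:**
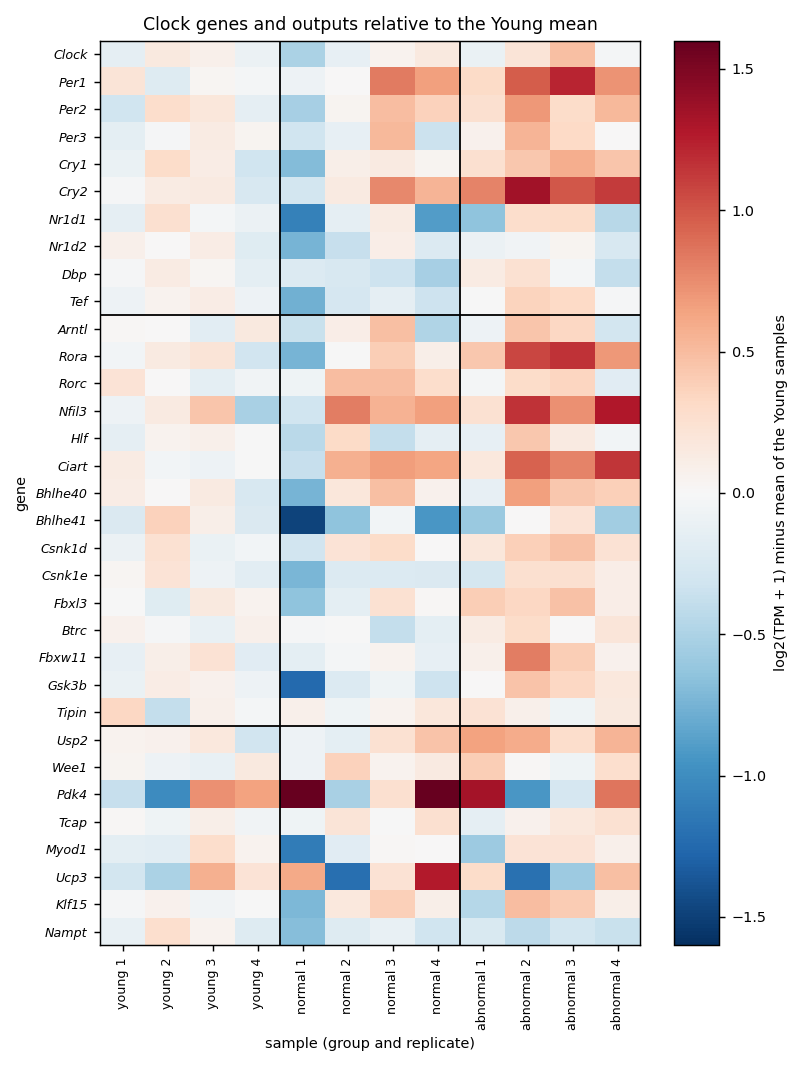
log2(TPM + 1) of the 10 clock genes, 15 further clock genes and 8 muscle outputs in each of the 12 samples, relative to the mean of the Young samples, with colors ending at 1.6 in either direction. Cry2 and Rora are red in every Fluo-4 abnormal sample, and the column of Fluo-4 normal replicate 1 is blue for most genes, Nr1d1 and Gsk3b among them.

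Samples of the aged groups carry the same numbers 1 to 4 in both, and their agreement was described from the deviation of each sample from its group mean on the log2(TPM + 1) scale. For every gene the SD of the 4 same-number differences was divided by the SD that unrelated samples would give, so that a ratio under 1 means that same-numbered samples moved together. All 10 clock genes had a ratio under 1, where 73.1% of 5994 genes with a mean of at least 5 TPM did, and the median ratio was 0.71 against 0.79. Clock, Per2 and Per3, with means of 2.12, 2.46 and 2.44 TPM over all samples, lie under that limit. The 5994 genes therefore hold no genes at their level. The ratio was 0.18 for Nr1d1, and only 1.18% of the 5994 genes had one as low. Its deviations were -0.58, 0.35, 0.63 and -0.40 in normal samples 1 to 4 and -0.51, 0.41, 0.42 and -0.32 in abnormal samples 1 to 4. These followed the same order, 3, 2, 4 and 1 from high to low, and Nr1d1 was the only one of the 10 genes with 1 full order in both groups, which 10.3% of the 5994 genes had. The differences between abnormal and normal samples of a number were 0.44, 0.43, 0.16 and 0.44. Thra, which overlaps Nr1d1 on the opposite strand, was also higher in numbers 2 and 3 than in 1 and 4 of both groups. The part of Thra reads in this agreement was not tested.

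The other genes agreed less closely. Dbp had a ratio of 0.47, with 17.1% of genes as low, and in both groups number 4 was lowest and numbers 1 and 2 were above the mean. This order differed from that of Nr1d1, since number 1 was low for Nr1d1 and high for Dbp. Tef had a ratio of 0.58, Per1 of 0.62, Cry1 of 0.68, Clock of 0.73 and Per3 of 0.77. Cry2 (0.87), Per2 (0.90) and Nr1d2 (0.90) were nearer to what unrelated samples give, and for Cry2 normal sample 3 stood above its group mean by 0.47 while abnormal sample 3 stood at -0.070. The abnormal sample was above the normal sample of its number in 35 of the 40 pairs of values, and in all 4 pairs for 6 genes (Per1, Cry1, Cry2, Nr1d1, Dbp and Tef), as it was for 44.7% of the 5994 genes. Number 1, the normal sample with the lowest scaling factor, was the lowest normal sample for 8 of the 10 genes, against 57.1% of the 5994 genes. It was lowest in both groups for 6 of the 10, against 26.4% of the 5994. These shares too leave out genes at the level of Clock, Per2 and Per3.

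**Figure D4:**
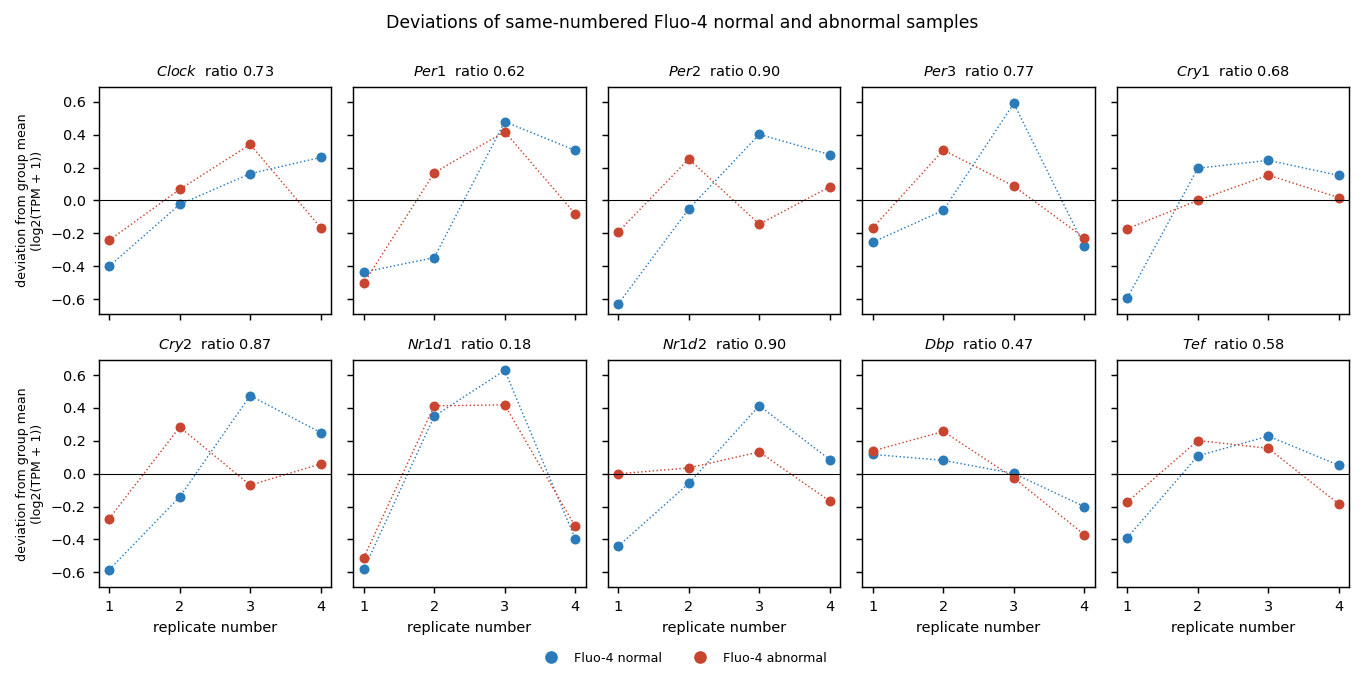
Deviation of each Fluo-4 normal and Fluo-4 abnormal sample from its group mean of log2(TPM + 1), by replicate number, with the ratio of each gene above its panel; dotted lines only link points of a group and the numbers have no order. The lines of Nr1d1 (ratio 0.18) nearly coincide, and those of Cry2 (0.87) and Nr1d2 (0.90) lie apart at several numbers.

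Taken over the 10 genes at once, the deviations of same-numbered samples correlated at 0.62, 0.19, 0.21 and 0.80 for numbers 1 to 4 (Pearson's r across 10 genes, which are not independent replicates and share the scaling of their sample). For the 12 combinations of unlike numbers r ran from -0.71 to 0.47 with a median of -0.11. Over the 5994 genes the same-number values were 0.44, 0.37, 0.43 and 0.30, against -0.36 to 0.23 for unlike numbers. Among the further clock genes 13 of the 14 with at least 5 TPM had a ratio under 1, with a median of 0.47. Csnk1e, a kinase of PER proteins, had 0.19 and Bhlhe41, a repressor of CLOCK-BMAL1 also called Dec2, had 0.39, and both followed the order of Nr1d1 in both groups, as did Csnk1d (0.51). In the normal samples this was also the order of the TMM-type scaling factors (0.996, 0.989, 0.960 and 0.809 for numbers 3, 2, 4 and 1). In the abnormal samples the factors ran 2, 4, 3 and 1 (1.17, 1.09, 1.07 and 1.06). Fos, Junb and Nr4a1 of the dissociation list had the order of the factors in both groups. The part of the scaling in these orders was not tested. Among the outputs 5 of 7 were under 1, with a median of 0.32. Pdk4, which limits glucose oxidation, had 0.15 at 141, 30.7, 53.6 and 144 TPM in the normal and 113, 22.9, 36.6 and 81.1 TPM in the abnormal samples. There numbers 1 and 4 were high, opposite to Nr1d1, and Ucp3, an uncoupling protein of muscle mitochondria (0.31), had the order 4, 1, 3 and 2 in both groups. All 7 glucocorticoid targets and all 15 dissociation genes at that level were also under 1, with medians of 0.52 and 0.71. Whether a number marks a mouse, a day or an hour is not given in the sources used here, and these cannot be told apart.

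Genes whose sample-to-sample pattern was most like that of Dbp were ranked by Pearson's r between deviations from the group means over the 12 samples, which share their scaling, among 5993 genes. The highest were Arpc5l (0.92), Ppp2cb (0.91), Aurka (0.91), Dkc1 (0.90) and Cnep1r1 (0.90), and the lowest Sugt1 (-0.91), Eif3g (-0.91), Rpl17 (-0.90), Psma5 (-0.88) and Dnajc1 (-0.88). No clock gene was among them. Arntl had 0.42, Nr1d1 0.30 at rank 1600, Tef 0.20, Nr1d2 0.074, Rora 0.031, Cry1 -0.041 and Cry2 -0.095. Nfil3 had -0.18, Per1 -0.27 and Ciart -0.47 at rank 5640.

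Exons of 3 further clock genes overlap protein-coding genes on the opposite strand, whose reads these libraries could not separate. Dbp shares 15.5% of its exon bases with Sphk2, which was at 3.16 to 5.11 TPM over all samples, and Clock shares 11.9% with Tmem165, which at 10.7 to 15.4 TPM was above Clock itself. Per3 shares 1.47% with Uts2, listed at 0 TPM throughout. Among overlaps with non-coding genes on the opposite strand, Tef shares 11.1% with Gm62928, Per1 4.36% with Gm72400 and Cry2 3.45% with D930015M05Rik. A search of all transcripts found no near-identical copy of any of the 10 genes over most of its transcript. Nr1d2, however, shared shorter stretches, of at least 100 bp with 95% identity or more, with 69 other genes.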

How the data were processed

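RNA of isolated EDL myofibers was profiled in 12 samples, 4 each of Young, Fluo-4 normal and Fluo-4 abnormal fibers, grouped by their labels. Libraries were built from 10 ng of RNA (SMART-Seq v4), and DRAGEN 4.3 aligned the reads to GRCm39. The authors deposited TPM values, 1 table per sample with 55487 entries summing to 1000000, and read counts were not used here, so depth and counting precision are unknown. The annotation release is not given in the sources used here.

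Symbols on several lines (114) were summed, and classes came from GENCODE vM39 (49848 symbols), RefSeq (GRCm38.p6, 2527 symbols) or a synonym (118), while 2874 were not matched. The 3 groups were compared on log2(TPM + 1) in a single linear model with limma 3.58.1 (R 4.3.3, variance trend) for 14429 protein-coding and mitochondrially-encoded genes with a mean of at least 0.02 TPM in at least 1 group, with Benjamini-Hochberg adjustment over all of them. The fit was tested on simulated data. The 10 genes, the lists and the alternatives were chosen with earlier results of these data known. All 10 were described in every comparison, and of the other lists those genes that passed, with further clock genes where a result touched them and the 5 genes most and 5 least like Dbp. Lists covered other clock genes, muscle outputs, glucocorticoid targets, dissociation genes and markers of 9 cell types. The labels number the aged samples alike in both groups. Over 5994 genes with a mean of at least 5 TPM same-numbered samples deviated together from their group means, with r of 0.44, 0.37, 0.43 and 0.30, each over 0.1, so the numbers were treated as pairs in a replicate block, although no source says what a number marks. The alternatives included TMM-type factors trimmed at 30% and 5%, totals without mitochondrially-encoded genes, other filters, a pseudocount of 0.1, all entries, the block, sample weights, the Myh4 share as a covariate, only the groups compared, and leaving out each sample. TMM-type factors with the block were added after seeing the data. BLAST 2.17.0 was used to look for copies with 95% identity over 100 bp or more, and promoters were read with pysam 0.24.0. Tables and figures used Python 3.11.15, pandas 2.3.3, numpy 2.4.6, scipy 1.17.1 and matplotlib 3.10.9.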

Additional observations from a re-analysis of the deposited data

Results flagged for a closer look

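Of 30 groups of 4 values (10 genes in 3 groups), 1 held a sample far from the rest. Cry1 in Fluo-4 normal replicate 1 was at 3.49 TPM, with the nearest other normal sample at 6.52 TPM, and the gap made up 0.859 of the range of the group, over Dixon's 95% limit for 4 samples. Chance alone flags about 1 in 20 groups. The same sample had the lowest scaling factor of the 12, 0.809. Without it the log2 change of Cry1 between abnormal and normal samples was 0.34 (limma, adjusted p = 0.216).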

How the results depend on the processing

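Of the 10 clock genes, 2 were called between abnormal and normal samples. The number was 1 with TMM-type factors, 0 in a fit of the aged groups alone, 3 with a filter of 5 TPM (Cry1 gained), 5 with the replicate block, 2 with the block and TMM-type factors (Cry2 and Tef), 0 with the block and the Myh4 share, and 0 to 2 when single samples were left out. Between abnormal and Young samples 2 were called, and 1 with TMM-type factors, without mitochondrially-encoded genes in the total, with no filter, with all entries, with the Myh4 share, and with the Myh4 share and the block, Per1 being lost each time. It was 3 with the block and TMM-type factors, which added Nr1d1, lower at -0.29 (limma, adjusted p = 0.0284), and 1 to 2 when single samples were left out. Between normal and Young samples the count of 0 became 3 with the block, and 3 with the block and TMM-type factors, a setting chosen after seeing the data, and stayed at 0 under the others. Over all genes, 512 were called there with the block and 508 with the block and TMM-type factors, beside 166 in the main fit. Changes that crossed 0 were small. With TMM-type factors, with or without the block, Nr1d2 was at -0.0036 between abnormal and normal samples and Tef at -0.0065 against Young. With the Myh4 share Nr1d1 was at 0.15 and Nr1d2 at 0.024 between abnormal and Young, and Per2 at -0.030 between normal and Young samples, while sample weights put Cry1 at 0.0067 there. Leaving out single samples gave ranges that crossed 0, from -0.27 to 0.044 for Nr1d1 and -0.095 to 0.11 for Dbp between abnormal and Young, and between normal and Young from -0.19 to 0.027 for Clock, -0.041 to 0.30 for Per2, -0.27 to 0.022 for Per3 and -0.21 to 0.091 for Cry1. The single-gene results kept their direction and their side of the threshold in 321 cases, lost the threshold in 11, gained it in 11 and reversed in 8, or 334, 15, 1 and 10 with a sample left out. Over all genes, the 1349 calls between abnormal and normal samples became 873 with TMM-type factors, 822 with the Myh4 share, 748 in a fit of the aged groups alone, 2281 with the block, 22 with the block and the Myh4 share, and 665 without abnormal replicate 2. The 1227 calls against Young became 1997 with the block and 604 without Young replicate 4. The causes were not tested. The median agreement of same-numbered samples over the 10 genes was 0.42, 0.40 with TMM-type factors and 0.32 with a pseudocount of 0.1. A filter of 5 TPM left out Clock, Per2 and Per3. The depth behind the values is unknown, which limits most the genes of few TPM.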
